A study of Mus musculus with 8 samples.

Results

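The 9 genes described here encode the enzymes that carry carbon from acetyl-CoA to squalene epoxide, namely Acat2, Hmgcs1, Mvk, Pmvk, Mvd, Idi1, Fdps, Fdft1 and Sqle. They are 9 of 55291 genes counted in each library. They were chosen from measured values of the same libraries, the treatment contrast of each line, dTAG-13 against DMSO. Levels are given as CPM, the counts of a gene scaled to a common library size. The differences between treatments are therefore given for these genes as a description, without a test. Differences between the lines were tested. The difference over both treatments uses the same libraries. It is separate from the contrasts that chose the genes only if all groups vary alike. DHX35-dTAG DMSO replicate 1, which differed from all other libraries, makes that doubtful. Differences within a treatment share libraries with those contrasts and are not independent of that choice.

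RNA was measured in mouse embryonic stem cells of 2 edited genotypes, DHX35-dTAG and GPATCH1-dTAG, in which a spliceosomal RNA helicase or its G-patch partner carries a degron tag that the small molecule dTAG-13 directs to degradation. Each line received DMSO or dTAG-13 at 200 nM for 4 h, with 2 libraries per group. The labels give the cells as E14, while the growth protocol that accompanies them speaks of R1 cells in serum medium with LIF and 2 inhibitors of differentiation. The lines were raised from picked colonies and the labels do not name the clone, so a line stands for its own history as well as for its tag. Nothing states that the replicates were separate cultures, and p-values here measure only the spread between these libraries, which may be technical.

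Libraries of DHX35-dTAG cells held 12765765 and 14173639 counts in DMSO and 12014203 and 13197149 in dTAG-13. Libraries of GPATCH1-dTAG cells held 14663300 and 13353642 counts in DMSO and 14994173 and 13149257 in dTAG-13. The 9 genes together took between 0.0442% and 0.0687% of these counts. The transcript of the tagged gene Gpatch1 lay between 6.90 and 7.31 CPM in GPATCH1-dTAG cells and between 23.2 and 25.6 CPM in DHX35-dTAG cells, in both treatments. Dhx35 lay between 58.1 and 64.9 CPM in GPATCH1-dTAG cells and between 72.3 and 84.8 CPM in DHX35-dTAG cells. These transcripts do not measure the loss of the proteins. Pluripotency markers were abundant: Pou5f1, Nanog, Sox2, Zfp42, Klf4, Esrrb, Tfcp2l1, Dppa5a and Utf1 summed to between 5368 and 6116 CPM per library, and none was at 0. The 7 fibroblast markers summed to at most 7.24 CPM, and Lum had 0 counts in every library. Markers of endoderm summed to at most 7.71 CPM, of mesoderm to 41.1 CPM, mostly Eomes and Kdr, of neuroectoderm to 11.3 CPM and of trophoblast to 70.0 CPM, mostly Tfap2c and Krt8.

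DHX35-dTAG DMSO replicate 1 differed from all other libraries. Its mean correlation with them, across genes on the log2 CPM scale, was 0.976, against 0.988 to 0.990 for the others. Mitochondrial messenger RNA took 0.272% of its counts and between 0.758% and 1.13% elsewhere. For values below that differ most with this library, the value without it is given too. The 2 genes with the most counts, Gm23935 and CT010467.1, took between 1.27% and 20.9% of the counts of a library (95% Wilson intervals 1.27% to 1.28% and 20.8% to 20.9%, which cover counting error only). CPM values were computed on effective library sizes from TMM normalization, a scaling factor that a few very abundant genes do not dominate.

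Cholesterol is built in the cytosol and the endoplasmic reticulum. Acetyl-CoA units are condensed to HMG-CoA, HMG-CoA is turned into mevalonate, kinases and a decarboxylase turn mevalonate into isopentenyl diphosphate, and isoprene units are joined to farnesyl diphosphate and then to squalene. When membrane sterol is low, the SREBP2 transcription factor leaves the endoplasmic reticulum, is cleaved in the Golgi apparatus and activates most genes of the route together with NF-Y and Sp1. Farnesyl diphosphate is also the branch point towards dolichol, ubiquinone and protein prenylation.

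Acat2 encodes the cytosolic thiolase that joins acetyl-CoA units. Its level was 54.2 and 52.3 CPM in DHX35-dTAG cells in DMSO and 55.4 and 54.0 CPM in dTAG-13. GPATCH1-dTAG cells had 54.7 and 51.5 CPM in DMSO and 64.2 and 57.4 CPM in dTAG-13. The treatments overlapped in the first line and did not overlap in the second, where replicate 1 in dTAG-13 was the highest library.

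Hmgcs1, the cytosolic HMG-CoA synthase, was the most abundant of the 9 transcripts per length. It was counted at 195.0 and 185.8 CPM in DHX35-dTAG cells in DMSO and at 212.6 and 245.0 CPM in dTAG-13. GPATCH1-dTAG libraries were at 178.0 and 183.3 CPM in DMSO and at 221.8 and 236.5 CPM in dTAG-13. All 4 dTAG-13 libraries lay above all 4 DMSO libraries, with a gap from 195.0 to 212.6 CPM.

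Mevalonate kinase, encoded by Mvk, adds the first phosphate to mevalonate. DHX35-dTAG cells had 27.9 and 23.0 CPM in DMSO and 28.3 and 24.2 CPM in dTAG-13, and these groups overlapped. GPATCH1-dTAG cells had 22.8 and 23.9 CPM in DMSO and 29.5 and 26.7 CPM in dTAG-13, without overlap.

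Pmvk encodes phosphomevalonate kinase, which adds the next phosphate. In DHX35-dTAG cells it reached 24.8 CPM in replicate 1 in DMSO, the library set apart above, against 12.1 CPM in replicate 2 and 15.7 and 15.1 CPM in dTAG-13. In GPATCH1-dTAG cells it was at 12.04 and 11.4 CPM in DMSO and at 14.1 and 13.5 CPM in dTAG-13. Outside the library at 24.8 CPM, each line had its dTAG-13 libraries above its DMSO libraries.

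Mvd, the decarboxylase that yields isopentenyl diphosphate, had 25.6 and 24.4 CPM in DHX35-dTAG cells in DMSO and 29.7 and 25.4 CPM in dTAG-13. It had 24.8 and 21.5 CPM in GPATCH1-dTAG cells in DMSO and 29.0 and 28.7 CPM in dTAG-13. The treatments overlapped narrowly in the first line, where 25.4 CPM in dTAG-13 lay under 25.6 CPM in DMSO.

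Idi1 encodes the isomerase that interconverts isopentenyl and dimethylallyl diphosphate. Its libraries in DHX35-dTAG cells spread widely, with 16.9 and 25.003 CPM in DMSO and 24.4 and 34.8 CPM in dTAG-13. In GPATCH1-dTAG cells they were close together, at 25.04 and 25.9 CPM in DMSO and at 31.7 and 33.2 CPM in dTAG-13. The lowest value belonged to DHX35-dTAG DMSO replicate 1.

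Farnesyl diphosphate synthase, encoded by Fdps, had the lowest counts, between 64 and 109 per library. Its level was 4.73 and 5.21 CPM in DHX35-dTAG cells in DMSO and 6.33 and 7.52 CPM in dTAG-13. GPATCH1-dTAG cells had 5.18 and 6.63 CPM in DMSO and 6.75 and 7.49 CPM in dTAG-13. The groups did not overlap in either line, although in GPATCH1-dTAG cells the highest DMSO and the lowest dTAG-13 library were close.

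Fdft1, the squalene synthase, commits farnesyl diphosphate to sterols. It was found at 79.5 and 71.1 CPM in DHX35-dTAG cells in DMSO and at 89.5 and 93.7 CPM in dTAG-13. GPATCH1-dTAG cells gave 74.9 and 80.7 CPM in DMSO and 101.7 and 100.8 CPM in dTAG-13. The highest DMSO library of either line, at 80.7 CPM, was below the lowest dTAG-13 library, at 89.5 CPM.

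Sqle encodes squalene epoxidase, the oxygen-dependent step that closes this stretch of the route. Its DHX35-dTAG libraries were at 98.4 and 115.4 CPM in DMSO and at 138.7 and 134.8 CPM in dTAG-13. Its GPATCH1-dTAG libraries were at 119.1 and 117.4 CPM in DMSO and at 139.8 and 142.2 CPM in dTAG-13. As for Hmgcs1 and Fdft1, the 4 dTAG-13 libraries and the 4 DMSO libraries did not overlap.

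**Figure D1:**
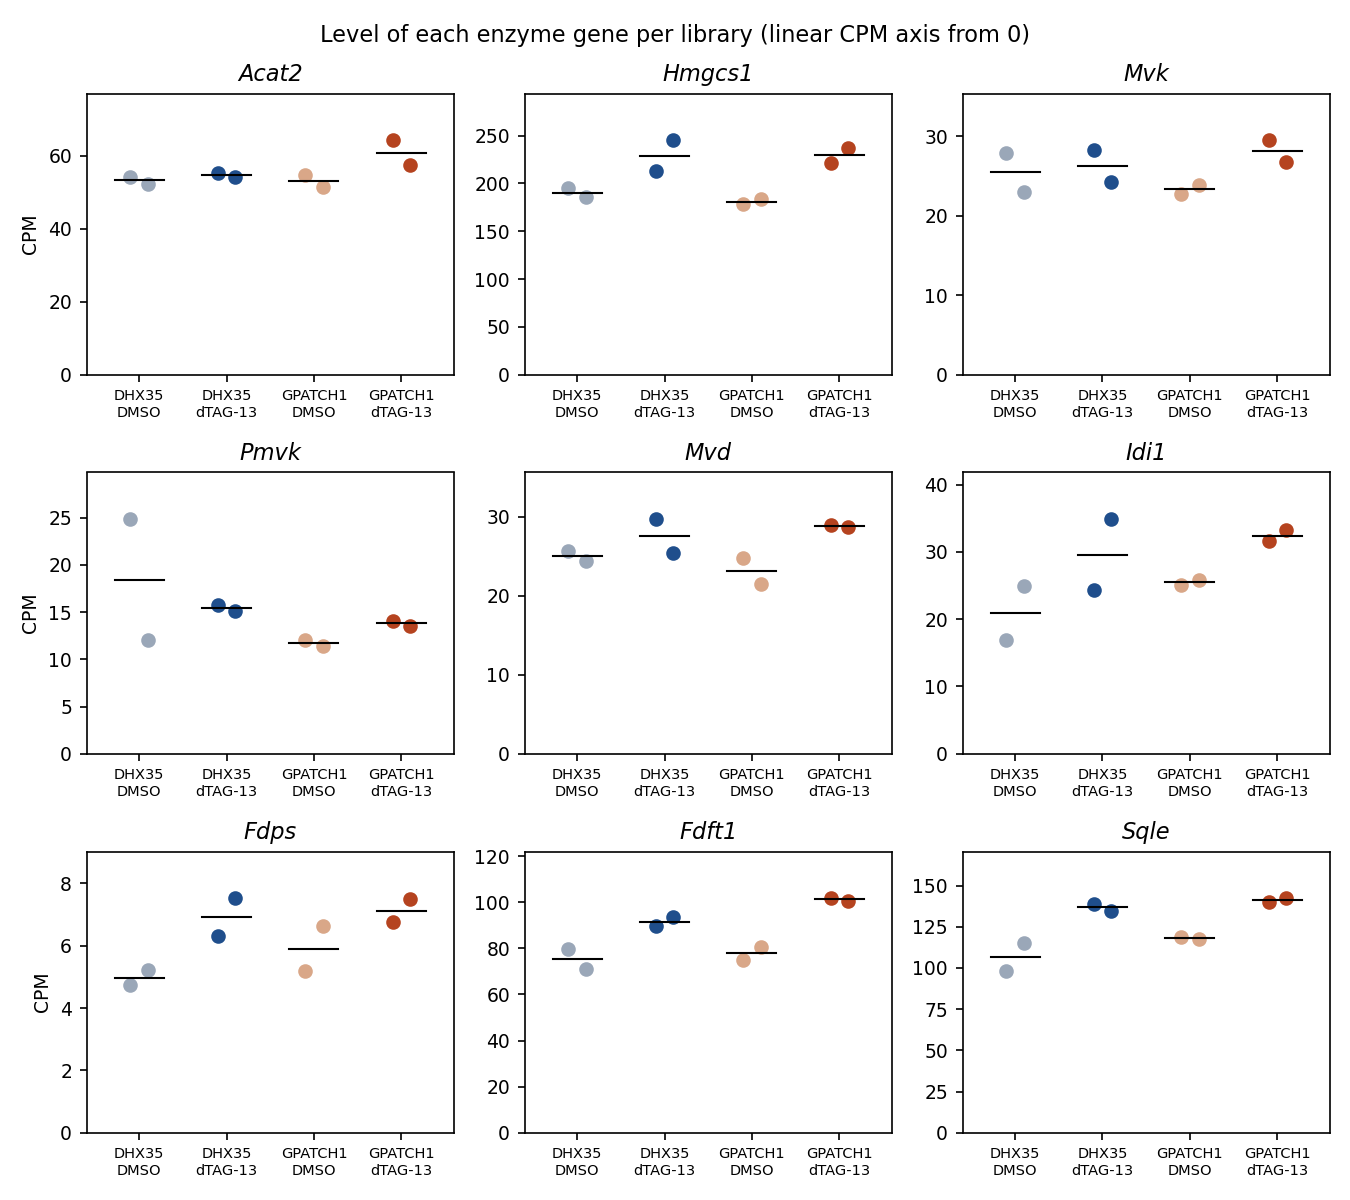
CPM on a linear axis from 0 for each of the 9 genes, with a point for each library, a horizontal line at the mean of the 2 libraries and the groups on the horizontal axis by line and treatment. Points of Hmgcs1, Fdft1 and Sqle in dTAG-13 all lie above those in DMSO, and the DHX35-dTAG DMSO libraries of Pmvk are far apart at 24.8 and 12.1 CPM.

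Set side by side, the 9 genes had both dTAG-13 libraries above both DMSO libraries in 9 of 9 cases in GPATCH1-dTAG cells, where 21.5% of the 16371 genes tested showed that order. In DHX35-dTAG cells 4 of 9 did so, namely Hmgcs1, Fdps, Fdft1 and Sqle, against 14.6% of all genes. Without DHX35-dTAG DMSO replicate 1, the pair of dTAG-13 libraries lay above the remaining DMSO library for 8 of the 9 genes, all but Idi1, against 30.7% of all genes. Over both lines, 3 of 9 genes had all 4 dTAG-13 libraries above all 4 DMSO libraries, against 1.03% of all genes. These orders were part of how the genes were chosen, so nothing is read from the counts. On raw total counts in place of effective library sizes, the median log2 ratio of all genes was -0.25 in DHX35-dTAG cells, where Acat2, Mvk and Mvd then lay below 0, and 0.17 in GPATCH1-dTAG cells, where no direction differed. The number of the 9 genes without overlap was then 2 and 9. The share of all genes in that order was not taken on raw totals, so nothing is read from these counts either. The median of the 9 genes on that scale was 0.27 above the median of all genes in DHX35-dTAG cells and 0.29 above it in GPATCH1-dTAG cells.

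In GPATCH1-dTAG cells the log2 fold change between treatments (dTAG-13 minus DMSO, ± SE, 2 libraries against 2) was above 0 for each of the 9 genes. It ran from 0.20 ± 0.09 for Acat2 through 0.23 ± 0.28 for Pmvk, 0.25 ± 0.09 for Sqle, 0.27 ± 0.13 for Mvk and 0.28 ± 0.18 for Fdps. Mvd followed at 0.32 ± 0.12, Hmgcs1 at 0.34 ± 0.09 and Idi1 at 0.35 ± 0.20, and Fdft1 had the highest value at 0.38 ± 0.09. Fdps came to 0.10 without GPATCH1-dTAG DMSO replicate 1 and to 0.45 without replicate 2, and Acat2 to 0.11 without GPATCH1-dTAG dTAG-13 replicate 1. The median of the 9 genes was 0.28 and that of all genes tested was 0.00.

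In DHX35-dTAG cells 8 of the 9 log2 fold changes were above 0. The values were 0.49 ± 0.20 for Idi1, 0.47 ± 0.19 for Fdps, 0.35 ± 0.09 for Sqle, 0.28 ± 0.09 for Fdft1 and 0.26 ± 0.09 for Hmgcs1. Mvd stood at 0.14 ± 0.12, Mvk at 0.05 ± 0.13 and Acat2 at 0.04 ± 0.09. Pmvk was at -0.25 ± 0.27. Without replicate 1 in DMSO, Pmvk came to 0.35 ± 0.13, Idi1 to 0.24 ± 0.15 and Mvk to 0.19 ± 0.12, and all 9 genes were above 0. Without replicate 2 in DMSO, Pmvk came to -0.68, Mvk to -0.08 and Idi1 to 0.81. Without replicate 1 in dTAG-13, Mvk came to -0.07 and Mvd to 0.02. Without replicate 2 in dTAG-13, Idi1 came to 0.22, Hmgcs1 to 0.16, Mvk to 0.16 and Mvd to 0.25. Acat2 lay between 0.02 and 0.07 when each library was left out in turn. The median of the 9 genes was 0.26 with all libraries and 0.25 without replicate 1 in DMSO, and that of all genes tested was -0.01.

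**Figure D2:**
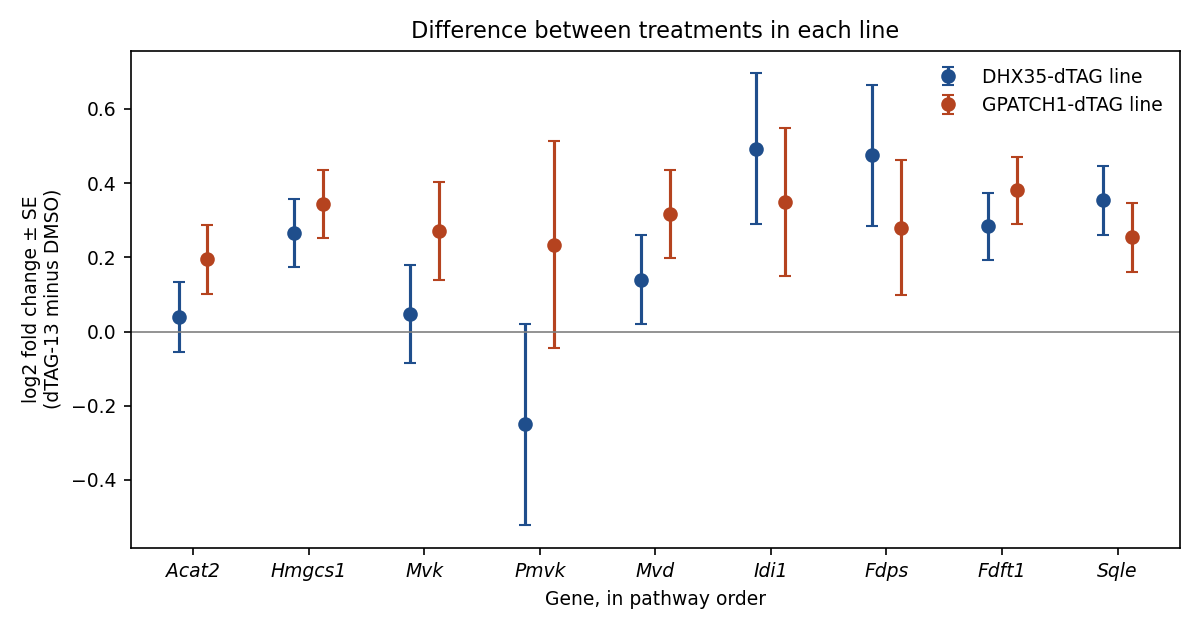
The log2 fold change (dTAG-13 minus DMSO) of each gene in pathway order, with its SE as the bar, for each line. Pmvk in DHX35-dTAG cells is the single value below 0, at -0.25, and comes to 0.35 without replicate 1 in DMSO. On raw totals Acat2, Mvk and Mvd are below 0 there as well.

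The response of GPATCH1-dTAG cells minus that of DHX35-dTAG cells was 0.08 ± 0.13 for Hmgcs1, 0.10 ± 0.13 for Fdft1, -0.10 ± 0.13 for Sqle, -0.14 ± 0.28 for Idi1 and -0.19 ± 0.26 for Fdps. The other values were those of Acat2 (0.16 ± 0.13), Mvk (0.22 ± 0.19), Mvd (0.18 ± 0.17) and Pmvk (0.48 ± 0.39). Without DHX35-dTAG DMSO replicate 1 it came to -0.12 for Pmvk, 0.11 for Idi1, 0.08 for Mvk, 0.01 for Sqle, 0.13 for Acat2, 0.13 for Mvd, 0.04 for Hmgcs1, 0.02 for Fdft1 and -0.12 for Fdps. The signs of Pmvk, Idi1 and Sqle thus depended on that library. This quantity is built from the contrasts that chose the genes and is given without a test. Neither response among the 16371 genes tested held a call at an adjusted p of 0.05 in edgeR's quasi-likelihood test, which called 0% of them in either line. At an unadjusted p under 0.05 there were 882 genes for DHX35-dTAG cells and 486 for GPATCH1-dTAG cells, and DESeq2 called 1 and 0. The count for DHX35-dTAG cells was 4949 without replicate 2 in DMSO, which leaves the library set apart above alone in its group, and was 2 without replicate 1. The count for GPATCH1-dTAG cells was 51 without either of these DHX35-dTAG libraries. Without GPATCH1-dTAG DMSO replicate 1 each count was 1, and without GPATCH1-dTAG DMSO replicate 2 the DHX35-dTAG count was 1.

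Between the lines, levels of the 9 genes were compared as GPATCH1-dTAG minus DHX35-dTAG, with p-values adjusted over all genes tested. No member passed in any of these comparisons: edgeR called 0 of 9 in DMSO, 0 of 9 in dTAG-13 and 0 of 9 over both treatments. Among all genes it called 15 in DMSO (0.0916%), 15 in dTAG-13 (0.0916%) and 109 over both (0.666%). These counts were 5887, 651 and 5149 without DHX35-dTAG DMSO replicate 2 and 121, 660 and 902 without DHX35-dTAG DMSO replicate 1, and at most 12, 11 and 25 without any other library. At an unadjusted p under 0.05 there was 1 of 9 in DMSO, Pmvk, and 0 of 9 in the other comparisons, against 12.9%, 8.47% and 15.1% of all genes. DESeq2 called 0 of 9 in each. Pmvk had the largest estimate over both treatments, -0.40 (95% interval -0.84 to 0.04, edgeR adjusted p = 0.369, 4 libraries against 4). In DMSO alone its estimate was -0.64 (interval -1.27 to -0.02, adjusted p = 0.375), and both GPATCH1-dTAG libraries, at 12.04 and 11.4 CPM, were below both DHX35-dTAG libraries. Without DHX35-dTAG DMSO replicate 1 these became -0.10 and -0.04.

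Idi1 was 0.20 higher in GPATCH1-dTAG cells over both treatments (interval -0.12 to 0.53, edgeR adjusted p = 0.516), Fdft1 0.10 (-0.05 to 0.24, adjusted p = 0.501) and Sqle 0.09 (-0.05 to 0.24, adjusted p = 0.513). Idi1 came to 0.08 and Sqle to 0.04 when DHX35-dTAG DMSO replicate 1 was left out. Fdps was at 0.14 (-0.16 to 0.43), Acat2 at 0.07 (-0.07 to 0.22), Mvk at -0.01 (-0.23 to 0.20), Mvd at -0.02 (-0.21 to 0.17) and Hmgcs1 at -0.04 (-0.18 to 0.11), with adjusted p from 0.610 to 0.958. With single libraries left out, Fdps ranged from 0.05 to 0.23, Acat2 from 0.04 to 0.12 and Fdft1 from 0.06 to 0.14. For Hmgcs1 the interval reaches no further than 0.18 below and 0.11 above 0 on the log2 scale, and that of Pmvk reaches 0.84 below. The libraries of the lines overlapped for each of the 9 genes when the treatments were pooled. The share of all genes that overlapped in this way was not taken. Without DHX35-dTAG DMSO replicate 2, edgeR called 3 of 9 genes over both treatments, Pmvk (-0.61, adjusted p = 2.23e-05), Idi1 (0.37, adjusted p = 0.00933) and Sqle (0.16, adjusted p = 0.0135), and the same 3 of 9 in DMSO. All genes called in that setting made up 30.0% over both treatments and 34.3% in DMSO, so 3 of 9 was near the share of all genes. Leaving out any other library called 0 of 9 in each comparison. In such bulk samples, fewer cells with a transcript and less transcript per cell cannot be told apart.

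Per length of annotated exons, Hmgcs1 had the highest level, 45.1 ± 5.56 CPM per kb (SD, n = 8 libraries), above the next gene in each of the 8 libraries and 1.99 times its level on average. Sqle (22.7 ± 2.80 CPM per kb), Acat2 (21.8 ± 1.56) and Fdft1 (20.5 ± 2.76) came next and did not differ beyond their spread: Sqle was above Acat2 in 5 of 8 libraries and Acat2 above Fdft1 in 6 of 8. Fdft1 exceeded Mvd (14.1 ± 1.51 CPM per kb) in 8 of 8 libraries, and Mvd exceeded Mvk (9.64 ± 0.983) in 8 of 8. Mvk, Pmvk (8.67 ± 2.52 CPM per kb) and Idi1 (7.74 ± 1.67) formed a further set of neighbours within their spread, Mvk being above Pmvk in 7 of 8 libraries and Pmvk above Idi1 in 2 of 8. Fdps was the lowest at 1.48 ± 0.256 CPM per kb, with Idi1 above it 5.23 times on average and in 8 of 8 libraries. The synthase that opens the route at HMG-CoA and the squalene-forming and squalene-oxidizing enzymes thus had the higher counted levels per length. Against these, the kinases, the isomerase and Fdps were lower. Exons of Fdps overlap the gene Gm43738 on the same strand, so its low level may be incomplete. Counts of Acat2, Hmgcs1, Idi1 and Fdft1 are uncertain as well, as described below.

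The 9 genes lie on 7 chromosomes, and coordinates here are those of GENCODE M21 on GRCm38, the build called mm10 in the submitters' processing notes. Acat2 (ENSMUSG00000023832.14) lies at chr17:12942890-12960747 on the minus strand, 2289 bases from Acat3, and 28.87% of its 100-base exon stretches occur exactly in Acat3 as well. Acat3 was counted at 118 in DHX35-dTAG DMSO replicate 1 and at 28 to 46 in the 7 others, against at least 582 for Acat2. Hmgcs1 (ENSMUSG00000093930.2) lies at chr13:119690379-119708260 on the plus strand, with 12.12% of its exons opposite Gm48342. Mvk (ENSMUSG00000041939.14) lies at chr5:114444269-114460591 on the plus strand, separated from the divergent gene Mmab by 208 bases.

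Pmvk (ENSMUSG00000027952.16) lies at chr3:89454541-89469013 on the plus strand, and Fdps (ENSMUSG00000059743.12) lies 353 kb away at chr3:89093588-89101959 on the minus strand. The transcript models of Fdps overlap the gene Gm43738 on the same strand over 26.71% of its exon bases, and 20.46% of its 100-base stretches are also in Gm43738, so its low count may be incomplete. Mvd (ENSMUSG00000006517.5) lies at chr8:122433601-122443422 on the minus strand. Idi1 (ENSMUSG00000058258.14) lies at chr13:8885501-8892451 on the plus strand, has 9.22% of its exon bases opposite Gm48574 and shares 15.84% of its 100-base stretches with Gm13502. Fdft1 (ENSMUSG00000021273.10) lies at chr14:63145150-63179578 on the minus strand, with 18.31% of its exon bases opposite Ctsb. Sqle (ENSMUSG00000022351.14) lies at chr15:59315077-59331192 on the plus strand. Mvk, Pmvk, Mvd and Sqle overlap no other exon and share no such stretch. The counting program and its strand setting are not given in the sources used here, so counts of Acat2, Hmgcs1, Idi1, Fdps and Fdft1 are uncertain by what the overlapping or similar genes contribute.

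The sequence before the start is shown for members with several CCAAT matches outside annotated exons, because NF-Y binds these letters. RefSeq promoters on GRCm38.p6, from 250 bases before to 50 after the start, matched 6 of the 9 genes by symbol, Acat2, Hmgcs1, Mvk, Pmvk, Mvd and Idi1. Fdps, Fdft1 and Sqle had no entry. Motifs were searched by their letters on both strands. CCAAT, the letters NF-Y binds, was found in 5 of the 6 genes, with 5 matches for Mvk, 4 for Hmgcs1, 2 for Mvd, 2 for Idi1, 1 for Pmvk and 0 for Acat2, while 37.41% of all 32851 promoters hold at least 1 and 11.7% hold 2 or more. TCACNCCAC, a sterol regulatory element core, was found for Hmgcs1 alone, against 1.24% of all promoters. The shorter form CACNCCAC, which lies inside it, was found for Hmgcs1 and Acat2, against 6.24%. GGGCGG, bound by Sp1, was found in 5 of 6 genes, all but Pmvk, against 35.66%, and CACGTG, the E-box, in 0 of 6, against 7.15%. A match describes the letters of the window and does not show binding.

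The stretches printed are those before the RefSeq start, 5′ to 3′ on the strand of the gene, with CCAAT or its reverse complement ATTGG and TCACNCCAC in capitals. They come from chr13:119690101-119690350 (plus strand) for Hmgcs1, which holds 3 CCAAT matches and the sterol element, from chr5:114444061-114444268 (plus strand) for Mvk and from chr8:122443423-122443672 (minus strand) for Mvd. The bases before the start of Idi1 lie within annotated exons and are not printed. The Mvk stretch of 208 bases is the whole interval between Mvk and Mmab. Its 5 CCAAT matches begin 173, 120, 67, 50 and 14 bases before the start of Mvk.
Hmgcs1: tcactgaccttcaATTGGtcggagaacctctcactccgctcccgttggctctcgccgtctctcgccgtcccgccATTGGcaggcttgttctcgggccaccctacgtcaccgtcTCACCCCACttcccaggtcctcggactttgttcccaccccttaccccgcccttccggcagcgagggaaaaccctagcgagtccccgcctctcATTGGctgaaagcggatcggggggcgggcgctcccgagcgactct
Mvk: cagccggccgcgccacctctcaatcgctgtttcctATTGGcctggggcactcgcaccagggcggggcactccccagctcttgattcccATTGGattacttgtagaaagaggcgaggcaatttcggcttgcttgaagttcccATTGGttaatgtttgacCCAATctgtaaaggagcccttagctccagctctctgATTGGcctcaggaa
Mvd: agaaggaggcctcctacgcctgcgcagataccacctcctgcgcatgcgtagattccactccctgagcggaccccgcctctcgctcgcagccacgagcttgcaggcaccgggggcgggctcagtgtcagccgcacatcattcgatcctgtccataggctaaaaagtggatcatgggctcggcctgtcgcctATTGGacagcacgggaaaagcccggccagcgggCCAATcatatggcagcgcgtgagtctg

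Genes of 8 further lists around the route were taken as a background, 67 names in all, of which 66 were in the files and 63 were tested. Acly, which supplies cytosolic acetyl-CoA, stood at 0.16 ± 0.09 on the log2 scale in DHX35-dTAG cells and at 0.09 ± 0.09 in GPATCH1-dTAG cells, less than Hmgcs1 in each. The former was 0.06 without DHX35-dTAG DMSO replicate 1. For the treatment contrasts these lists were also known when they were written, so their values are a description.

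Of the 11 enzymes from lanosterol to cholesterol, 9 were above 0 among DHX35-dTAG and 10 among GPATCH1-dTAG libraries, with medians of 0.29 and 0.21 beside 0.26 and 0.28 for the 9 genes upstream. Hsd17b7 had 0.58 ± 0.15 and 0.33 ± 0.15, Cyp51 0.44 ± 0.09 and 0.42 ± 0.09, and Msmo1 0.29 ± 0.11 and 0.49 ± 0.11, each without overlap of its groups in either line. In DHX35-dTAG cells without DMSO replicate 1, Hsd17b7 was at 0.44, Cyp51 at 0.46 and Msmo1 at 0.38, and the median of the 11 enzymes was 0.20. The values below 0 belonged to Tm7sf2 and Ebp in DHX35-dTAG cells and Nsdhl in GPATCH1-dTAG cells.

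Isozymes of the 9 enzymes serve other compartments or routes. Idi2, the other isomerase gene, was below the filter on low counts. Acat1, the mitochondrial thiolase, was at -0.30 ± 0.16 in DHX35-dTAG cells and at 0.00 ± 0.16 in GPATCH1-dTAG cells, and Mmab, the divergent neighbour of Mvk, was at 0.06 ± 0.16 and 0.04 ± 0.15. Acat3 was at -0.92 ± 0.48 and 0.09 ± 0.53 on few counts, and its first value rests on the library with 118 counts. Leaving that library out gave 0.12 for Acat3, -0.10 for Acat1 and 0.18 for Mmab in DHX35-dTAG cells.

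Another list held 13 genes of the branches that lead from farnesyl or geranylgeranyl diphosphate outside sterol synthesis. Of these, 3 were above 0 among DHX35-dTAG and 9 among GPATCH1-dTAG libraries, with medians of -0.13 and 0.02. Dolk, the dolichol kinase, was at -0.14 ± 0.18 and -0.34 ± 0.18, Ggps1, the geranylgeranyl diphosphate synthase, at 0.34 ± 0.20 and -0.13 ± 0.19, and Dhdds at -0.13 ± 0.10 and -0.05 ± 0.10. Leaving out DHX35-dTAG DMSO replicate 1 gave Ggps1 0.03, Dolk 0.16 and Dhdds -0.13 in DHX35-dTAG cells. The median of the 13 genes there was then 0.05, with 8 of 13 above 0, so its sign depended on that library.

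Among 7 genes of sterol sensing and SREBP processing, Insig1, which retains the SREBP complex in the endoplasmic reticulum, was at 64.2 and 63.2 CPM in DMSO and 83.9 and 83.0 CPM in dTAG-13 in DHX35-dTAG cells. In GPATCH1-dTAG cells it was at 65.4 and 62.5 CPM in DMSO and 86.6 and 84.1 CPM in dTAG-13. Its log2 fold changes were 0.39 ± 0.08 and 0.42 ± 0.08, above those of Insig2 (-0.03 ± 0.16 and -0.31 ± 0.15) and Srebf2 (0.09 ± 0.08 and 0.13 ± 0.08). Over the list, 4 of 7 were above 0 in DHX35-dTAG cells and 6 of 7 in GPATCH1-dTAG cells. Leaving out DHX35-dTAG DMSO replicate 1 gave Srebf2 0.16 in DHX35-dTAG cells, with 3 of 7 above 0 and the list median at -0.02 in place of 0.01.

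Among genes of sterol uptake, transport and efflux, Npc1l1 was below the filter on low counts. Mylip, a ubiquitin ligase gene, was at -0.33 ± 0.24 in DHX35-dTAG cells and at -0.27 ± 0.25 in GPATCH1-dTAG cells. Nr1h3, a sterol-sensing nuclear receptor gene, was at -0.37 ± 0.35 and -0.04 ± 0.35 on at most 16 counts. Both genes were below 0 in either line, where 8 and 9 of the 9 enzymes were above 0.

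**Figure D3:**
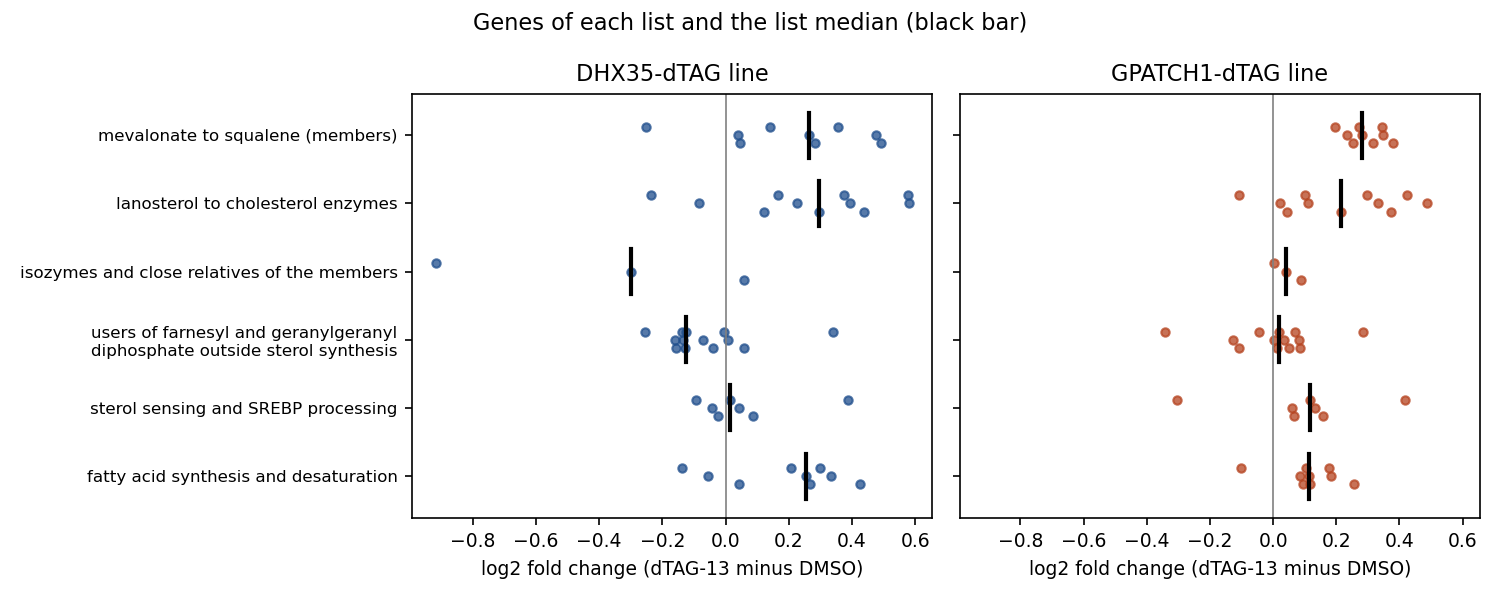
Log2 fold changes (dTAG-13 minus DMSO) on the horizontal axis for each tested gene of the 9 enzymes and of 5 further lists, with a point for each gene and a black bar at the list median, in DHX35-dTAG cells at left and GPATCH1-dTAG cells at right. The medians of the 9 enzymes are 0.26 and 0.28. Those of the list labelled users of farnesyl and geranylgeranyl diphosphate, which are genes of these branches, are -0.13 and 0.02.

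Between the lines, edgeR called 0 of the 63 list genes in DMSO, 0 of 63 in dTAG-13 and 1 of 63 over both treatments. At an unadjusted p under 0.05 there were 8, 6 and 11 of them, near the shares of all genes given above, and DESeq2 called 0, 1 and 1. The gene over both treatments was Abca1, the cholesterol efflux transporter, at 61.9, 67.5, 60.0 and 60.2 CPM in DHX35-dTAG cells and 87.9, 86.2, 87.2 and 86.6 CPM in GPATCH1-dTAG cells. Its log2 difference was 0.48 (95% interval 0.35 to 0.61, edgeR adjusted p = 0.0119), and 4 of 4 GPATCH1-dTAG libraries were above 4 of 4 DHX35-dTAG libraries. The share of all genes with such an order between the lines was not taken, so nothing is read from the order. The call was lost without each of 6 libraries in turn, the dTAG-13 libraries of DHX35-dTAG cells and the 4 libraries of GPATCH1-dTAG cells, with adjusted p from 0.108 to 0.137 and the estimate lay between 0.45 and 0.52 over all such omissions. The list genes called were 1, 5 and 5 without DHX35-dTAG DMSO replicate 1, and 29, 5 and 20 without replicate 2. Of all genes, 0.710%, 3.87% and 5.29% were called without replicate 1, and 34.3%, 3.79% and 30.0% without replicate 2. None of the 9 synthesis enzymes showed a difference of that size and precision between the lines.

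Outside these lists, the genes whose profile over the 8 libraries was nearest to the mean of the 9 enzymes were Alkbh6, Aacs, Etfdh, Rubcn and Rdh11. Profiles were log2 CPM centred on each gene's mean, compared among genes of at least 10 CPM on average. The root mean square difference to the mean profile was 0.04 for Alkbh6, 0.05 for Aacs, 0.06 for Etfdh, 0.06 for Rubcn and 0.07 for Rdh11. Among the 9 enzymes themselves it was 0.06 for Hmgcs1 and Fdft1, between 0.09 and 0.16 for Acat2, Mvd, Sqle, Mvk and Fdps, 0.25 for Idi1 and 0.34 for Pmvk. Aacs encodes acetoacetyl-CoA synthetase, and its log2 fold changes were 0.23 among DHX35-dTAG and 0.34 among GPATCH1-dTAG libraries. Hmgcs1 and Fdft1 therefore followed the mean of the enzymes most closely, while Pmvk and Idi1 departed from it, both in DHX35-dTAG DMSO replicate 1.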

How the data were processed

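The authors deposited raw counts per gene for each library, whole numbers that are not normalized. RNA was mixed with human DLD-1 RNA as a spike-in, depleted of ribosomal RNA and made into stranded libraries. The submitters' notes name FastQC 0.11.9, Trim Galore 0.6.6, STAR 2.7.5c and DESeq2 1.26.0 with builds mm10 and hg19. From the counts, CPM was computed on TMM effective library sizes. The quasi-likelihood F test of edgeR 4.0.16 (R 4.3.3) gave the p-values, with a mean for each of the 4 groups, after filterByExpr had kept 16371 genes, and Benjamini-Hochberg adjusted p under 0.05 was a call. The SE was taken as the absolute log2 fold change over the root of F. All 9 members passed the filter. Spike-in scaling was not run. Dispersion over all genes was 0.0125 (coefficient of variation 11.2%).

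The members and the gene lists were chosen with earlier results of these data known. The text names all 9 members, up to 3 genes of each list with the largest absolute fold change averaged over both lines, any list gene passing a line test, and the 5 genes nearest in profile. Some results under this rule are not reported here. Dhx35 and Gpatch1 are named as a check of the labels. Tm7sf2, Ebp, Nsdhl, the marker genes singled out and the 2 most counted genes were chosen for naming after their values were seen. Between replicates of a group, chi-square per gene lay between 4.93 and 121, so no library was a copy of its replicate. Alternatives were DESeq2 1.42.0, its size factors in edgeR, other filters, a replicate block, only the libraries compared, the removal of the 2 most counted genes and of each library in turn, raw totals for CPM, the longest transcript as gene length and 250 promoter bases. Gene models came from GENCODE M21 on GRCm38 and promoters from RefSeq on GRCm38.p6. The counting program, its annotation and its strand setting are not given in the sources used here.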

Additional observations from a re-analysis of the deposited data

Results flagged for a closer look

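Acss2, the acetyl-CoA synthetase that makes cytosolic acetyl-CoA from acetate, differed in direction between the lines. It was at 18.4 and 16.1 CPM in DHX35-dTAG cells in DMSO and at 14.5 and 15.5 CPM in dTAG-13, both lower. The log2 fold change of DHX35-dTAG cells was -0.20 ± 0.12, and -0.10 ± 0.13 without DMSO replicate 1. In GPATCH1-dTAG cells the gene was at 12.9 and 13.4 CPM in DMSO and at 13.5 and 14.4 CPM in dTAG-13, both higher. The log2 fold change of GPATCH1-dTAG cells was 0.08, with or without DHX35-dTAG DMSO replicate 1. The response of GPATCH1-dTAG cells minus that of DHX35-dTAG cells was 0.28 ± 0.17 on the log2 scale, and this difference was not tested. It was smaller without DHX35-dTAG DMSO replicate 1. Acss2 was 1 of 39 genes looked at for opposite directions.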

How the results depend on the processing

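The median log2 fold change of the 9 genes was above 0 in all 30 values from the alternative settings, counting each line apart. With single libraries left out it ranged from 0.21 to 0.32 in DHX35-dTAG cells, from 0.28 to 0.31 in GPATCH1-dTAG cells, from -0.0430 to 0.0249 for the line difference in DMSO, from 0.0637 to 0.105 in dTAG-13 and from 0.0369 to 0.0918 over both treatments. A library left alone in its group was assumed to vary like the other groups. Genes called then ranged from 0 to 4949 for DHX35-dTAG cells, from 0 to 51 for GPATCH1-dTAG cells, from 4 to 5887 for the line difference in DMSO, from 4 to 660 in dTAG-13 and from 16 to 5149 over both.

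Without an expression filter, genes called were 345 and 21 for the treatments and 986, 158 and 890 for the line differences in DMSO, in dTAG-13 and over both. Pmvk then passed at -0.62 in DMSO and -0.38 over both, and Mvk over both came to 0.00500. DESeq2 called 1 gene for DHX35-dTAG cells and 47 and 48 for the line differences in DMSO and dTAG-13. The edgeR test on genes with at least 10 counts in every library called 4 and 4 for these line differences. With only the libraries compared, 1 and 127 genes were called for the treatments and 2 and 342 for the line differences. In each case the cause was not tested.

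Correlations of the replicate deviations between groups ran from 0.0372 to 0.230, which does not settle whether replicate numbers pair the libraries. A replicate block called 0, 0, 16, 19 and 132 genes. On raw totals 2 of the enzyme genes had non-overlapping groups in DHX35-dTAG cells. On effective library sizes 8 did without DHX35-dTAG DMSO replicate 1, against 30.7% of all genes, an alternative chosen after seeing the data. The median log2 ratio of all genes on raw totals was -0.25 in these cells. The share of all genes with non-overlapping groups was not taken on that scale, so nothing is read from the count on raw totals. Over both treatments, leaving out single libraries took Mvk from -0.0768 to 0.0587, Mvd from -0.0722 to 0.0425 and Hmgcs1 from -0.0826 to 0.0174. With the longest transcript as gene length Pmvk (12.4 CPM per kb) stood above Mvk (10.8). With 250 promoter bases no count of genes with a motif differed. Depth limits Fdps most, with at most 109 counts in a library.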

Other observations

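Genes of fatty acid synthesis and desaturation, which SREBP factors also control, were above 0 on the log2 scale for 7 of 9 genes in DHX35-dTAG cells and for 8 of 9 in GPATCH1-dTAG cells. The medians were 0.25 and 0.12, against 0.26 and 0.28 for the 9 enzymes from acetyl-CoA to squalene epoxide. The stearoyl-CoA desaturase gene Scd1 was at 0.43 ± 0.12 in DHX35-dTAG cells and at 0.10 ± 0.12 in GPATCH1-dTAG cells. Its DMSO libraries in DHX35-dTAG cells were at 92.9 and 120.1 CPM and its dTAG-13 libraries at 140.9 and 145.7 CPM. Scd2 was at 0.33 ± 0.09 and 0.18 ± 0.09, and Fads2 at 0.30 ± 0.11 and 0.12 ± 0.11. Without DHX35-dTAG DMSO replicate 1, Scd1 was at 0.26, Scd2 at 0.24 and Fads2 at 0.18 in DHX35-dTAG cells. The median of the list there was then 0.08, while that of the 9 enzymes was 0.25.

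Of genes whose products degrade sterol synthesis enzymes, Marchf6, which acts on squalene epoxidase, was at 0.13 ± 0.13 in the DHX35-dTAG line and 0.06 ± 0.13 in the GPATCH1-dTAG line, and Rnf145 was at -0.08 ± 0.10 and -0.02 ± 0.10. Leaving out DHX35-dTAG DMSO replicate 1 gave Marchf6 -0.06 and Rnf145 0.05 in the DHX35-dTAG line.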
